A study of Mus musculus with 8 samples.

Results

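The histone genes of the mouse were compared between livers of P2X4R-deficient and wild-type mice, all given ConA and sampled at 8 h. A gene was taken as a member by its symbol in the deposited table: the numbered H1f, H2ac, H2bc, H3c and H4c genes together with H2az1, H2az2, H2ax, H3f3a, H3f3b, Macroh2a1 and Macroh2a2. This gave 76 of the 21899 genes listed. Of these, 63 are clustered replication-dependent genes (H1f1 to H1f5 and every H2ac, H2bc, H3c and H4c gene) and 8 are polyadenylated variants (H1f0, H1f10, H2az1, H2az2, H3f3a, H3f3b, Macroh2a1 and Macroh2a2). H2ax stands alone because its mRNA can end either way, and H1f6 to H1f9 are germline H1 genes. There were 4 libraries a group. P2X4R, encoded by P2rx4, is an ATP-gated cation channel. ConA, or concanavalin A, is a lectin of jack beans used to provoke a T cell-driven hepatitis in mice. The sample labels call the altered genotype a knockdown, whereas the series text writes P2X4R-/-; neither says which cells or which part of the gene were altered, and no age or sex is given. Untreated livers were not analysed here, so each value describes ConA-treated liver tissue.

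Histones package DNA into nucleosomes: H2A, H2B, H3 and H4 form the core particle, and H1 binds the linker DNA that enters and leaves it. Most histone protein is made during DNA synthesis from clustered intronless genes whose mRNAs end in a conserved stem-loop instead of a poly(A) tail, are bound there by SLBP and are degraded when replication stops. Variants such as H3.3 (H3f3a, H3f3b) and H2A.Z (H2az1, H2az2) come from single genes with introns and ordinary poly(A) tails and are made throughout the cell cycle, also in resting hepatocytes. H1f2, H2bc4 and H2bc21 are clustered genes known to make polyadenylated transcripts as well. Whether the other clustered genes do so in these livers was not examined. RNA for these libraries was captured on poly-T beads, so reads of clustered genes come only from whatever part of their RNA such a selection retains. Their absolute level in the liver was not measured.

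The stem-loop is what separates both classes in sequence, and it is shown for the clustered genes that passed the test, for H1f2 and for H2ax. Capitals mark the stem-loop and lower case the flanking bases, as read from GENCODE M21 transcripts of GRCm38 and written 5′ to 3′ as DNA.
H1f2: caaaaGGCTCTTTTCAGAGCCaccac
H1f3: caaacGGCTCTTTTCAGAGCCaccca
H1f4: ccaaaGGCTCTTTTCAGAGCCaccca
H3c1: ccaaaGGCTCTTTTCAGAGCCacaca
H3c6: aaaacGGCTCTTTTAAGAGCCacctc
H4c11: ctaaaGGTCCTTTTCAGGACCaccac
H4c17: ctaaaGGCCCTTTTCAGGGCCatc
H2ax: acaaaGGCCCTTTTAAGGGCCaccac

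The histone stem-loop pattern, searched on the transcript strand with pyrimidine or purine alternatives allowed in the stem and loop, was present in 42 of 63 clustered genes (66.7%), in 0 of 8 variants, in H2ax and in H1f6. Among all 21901 protein-coding genes of that annotation 68 held it (0.31%), and 44 of the 68 were histone members. The most common form, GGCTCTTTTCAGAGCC, was found in 28 genes, of which 24 were clustered members. Every H4 stem-loop found was of another form, 6 of them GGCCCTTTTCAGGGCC. The listed models of H1f5, H2bc4 and H2bc21 held none, which says only that these letters are not in those models. Many models run on past the stem-loop: 1153 bases in H1f4, 4884 in H1f3 and 840 in H1f2, but 37 in H3c1 and 3 in H4c17. Of the clustered genes that fell, 6 had a stem-loop, with a median of 377 bases of model after it. The tested genes that did not pass had a median of 392 over 8 genes, and those with too few reads to test had 44 over 28.

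Promoters of the linker histone genes are shown because H1f3, H1f4 and H1f5 fell together, beside H1f2, which did not pass, and H3f3b, the variant that fell. Each run is the 130 bases before the transcription start in RefSeq (GRCm38.p6), on the strand of the gene. Capitals mark AAACACA of the H1 AC box, CCAAT boxes (written ATTGG where they lie on the other strand), the TATA box as TATAAA, and in H3f3b the octamer, written ATGCAAAT because it lies on the other strand.
H1f2, chr13:23738677-23738806, plus strand: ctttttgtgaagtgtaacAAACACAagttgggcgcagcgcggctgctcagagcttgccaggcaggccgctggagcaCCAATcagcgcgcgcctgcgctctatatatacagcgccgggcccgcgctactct
H1f3, chr13:23554902-23555031, plus strand: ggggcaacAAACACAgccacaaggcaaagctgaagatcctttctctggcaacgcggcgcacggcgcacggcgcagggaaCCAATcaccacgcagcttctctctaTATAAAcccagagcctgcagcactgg
H1f4, chr13:23622559-23622688, minus strand: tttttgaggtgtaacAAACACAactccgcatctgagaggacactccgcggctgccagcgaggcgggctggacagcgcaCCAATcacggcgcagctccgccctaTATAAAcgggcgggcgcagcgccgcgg
H1f5, chr13:21780626-21780755, minus strand: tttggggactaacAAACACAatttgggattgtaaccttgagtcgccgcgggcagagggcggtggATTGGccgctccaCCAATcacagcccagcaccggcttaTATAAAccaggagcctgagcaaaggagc
H3f3b, chr11:116024505-116024634, minus strand: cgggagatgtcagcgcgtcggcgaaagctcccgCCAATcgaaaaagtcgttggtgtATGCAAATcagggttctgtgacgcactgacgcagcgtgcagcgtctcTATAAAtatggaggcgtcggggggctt

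Motifs were counted on both strands over 300 bases, 250 before to 50 after the start, for the 68 members with a RefSeq promoter. AAACACA was in 4 of 5 clustered H1 promoters, including H1f2, against 8.22% of all 27025 promoters. GGTCCG, the H4 element, was in 10 of 11 H4 promoters and in 4 of 8 variant promoters, against 9.44% of all. TATAAA was in 34 of 57 clustered promoters (59.6%) against 15.7% of all, and in 1 of 8 variant promoters, that of H3f3b. CCAAT was in every clustered H1, H2A, H2B and H3 promoter matched but in 3 of 11 of H4, against 41.1% of all. The octamer ATTTGCAT was in 6 of 17 H2A and 7 of 14 H2B promoters against 1.97% of all. Of the clustered genes that fell, 5 of 6 with a promoter held TATAAA, and of those tested that did not pass, 6 of 10. No motif of the 5 is contained in another, and a match is no evidence of a bound factor.

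The libraries held between 15445285 and 16604190 counted reads. At that depth a count of 0 allows a level of up to 3 reads, which is 0.172 to 0.211 CPM, that is, reads scaled to a common library total after TMM scaling. P2rx4 had 286 to 516 reads in the deficient and 692 to 906 in the wild-type libraries and was lower by a log2 fold change of -1.18 (SE 0.19; adjusted p = 0.00481 with edgeR), so no library went against its label. The labels do not say that libraries came from separate animals, so a p-value here reflects the spread among these libraries, which may be technical. In whole-liver RNA, fewer cells of a type and less RNA per cell cannot be told apart. Near-identical copies make single-gene counts uncertain. Among the members, 49 of 63 clustered genes shared over 20% of their 50-base words with another member, against 0 of 8 variants. Copies outside the members, or in transcripts that are not protein-coding, were not searched for either class. The variants' counts, H3f3b and H3f3a included, were thus not checked for reads shared with such copies.

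Every clustered histone gene that passed the test was lower in P2X4R-deficient livers. Of the 63, 44 had too few reads to be tested, 15 of them with no read at all, and 19 were tested with edgeR's quasi-likelihood test on counts, with Benjamini-Hochberg adjustment over 11380 genes. At an adjusted p under 0.05, 7 of the 19 fell (H1f3, H1f4, H1f5, H3c1, H3c6, H4c11 and H4c17), against 10.6% of all genes tested. None of the 19 rose, against 9.27% of all genes; none was higher at an unadjusted p under 0.05, and DESeq2 and limma-voom also called 0 higher. The median log2 fold change of the 19 was -1.41, and that of all genes tested was 0.0. Values of all 4 deficient libraries lay below all 4 wild-type libraries for 8 of the 19, against 12.3% of all genes. A gene could meet the expression filter through 1 group alone. H3c1, H3c6 and H4c17 did so through wild type, with at most 6 reads in any deficient library. H3c15, with 25 reads in the deficient and 0 in the wild-type libraries, was not tested. Without the filter the same 7 fell and H3c15 rose, so the absence of rises depended on the filter. Leaving out deficient 3 or wild type 3 left 4 calls, and requiring 1 CPM in 4 libraries left 4 as well, since H1f5, H3c6 and H4c11 were then not tested.

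**Figure D1:**
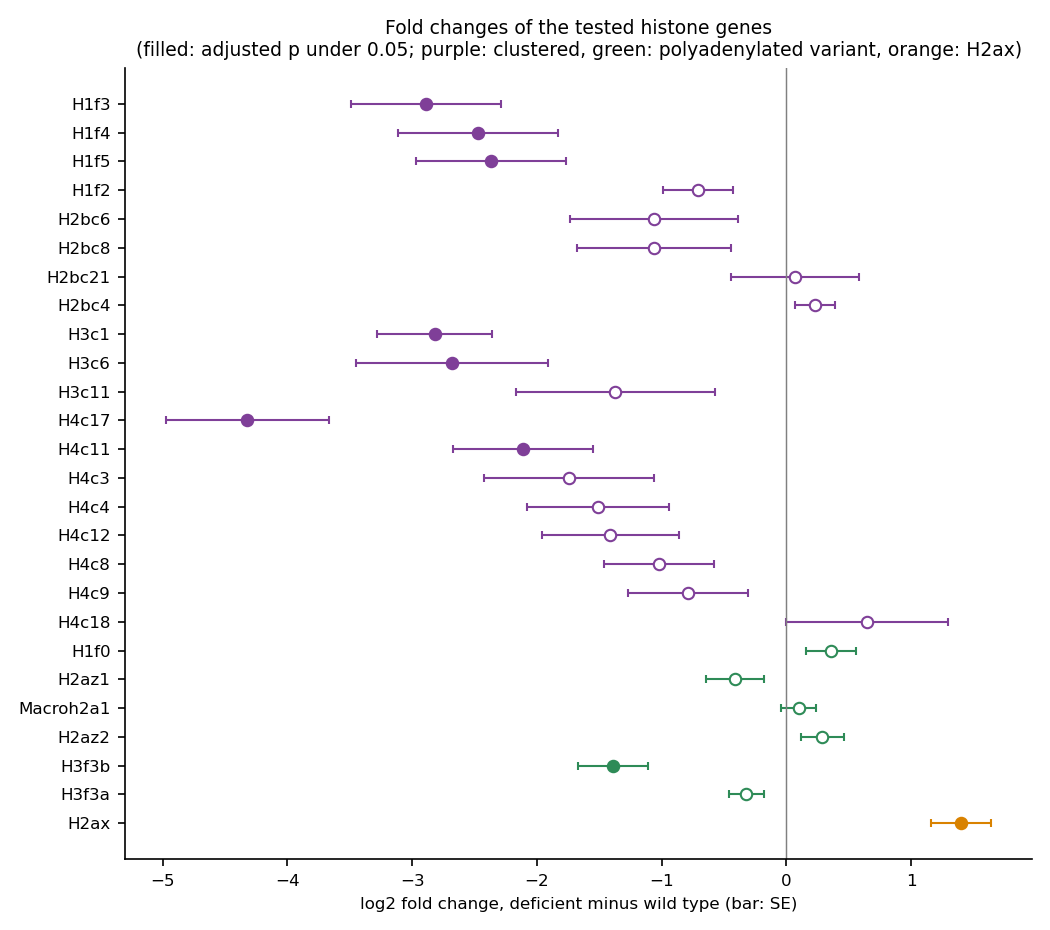
Log2 fold change (deficient minus wild type, x axis) of each tested histone gene, with bars of 1 SE; filled points passed the edgeR threshold. The 7 clustered genes and H3f3b that fell lie at -1.39 or lower, H2ax lies at 1.40, and the other variants lie between -0.41 and 0.36.

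Of 4 tested linker histone genes of the clusters, whose proteins compact chromatin between nucleosomes, H1f3, H1f4 and H1f5 fell. H1f3 (ENSMUSG00000052565, encoding H1.3) had 3, 77, 19 and 73 reads in deficient libraries 1 to 4 and 335, 158, 307 and 370 in wild-type libraries 1 to 4. The highest deficient library was thus well under the lowest wild-type library, and deficient 1 and 3 were lower than deficient 2 and 4. Deficient libraries averaged 2.56 ± 2.27 CPM and wild-type libraries 19.1 ± 5.50 CPM (SD, n = 4), a log2 fold change of -2.89 (SE 0.60, edgeR adjusted p = 0.01). H1f4 (ENSMUSG00000051627, encoding H1.4) had 5, 73, 10 and 103 reads in the deficient and 331, 160, 248 and 221 in the wild-type libraries. The groups did not overlap and the order of the deficient libraries was alike, with 1 and 3 low. H1f4 fell by 2.47 (SE 0.64, edgeR adjusted p = 0.0212), from 15.7 ± 4.09 to 2.83 ± 2.82 CPM (SD, n = 4), and missed the threshold without wild type 3 (adjusted p = 0.0524). Its listed span overlaps that of H2bc6 by 496 bases on the same strand, so reads there cannot be assigned to 1 of these genes.

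H1f5 (ENSMUSG00000058773, encoding H1.5) had 2, 4, 2 and 14 reads in the deficient and 43, 15, 20 and 27 in the wild-type libraries. The groups came close, with deficient 4 at 14 reads and wild type 2 at 15. H1f5 fell by 2.37 (SE 0.60, edgeR adjusted p = 0.0198) and missed the threshold without deficient 3 (adjusted p = 0.0575). None of its 50-base words is shared with another member, and H1f3 shares 2.2% of its own. H1f2 (ENSMUSG00000036181, encoding H1.2), known to make polyadenylated transcripts too, had far more reads: 380, 1019, 703 and 600 in the deficient and 908, 1147, 752 and 1203 in the wild-type libraries. These groups overlapped. Its log2 fold change of -0.71 (SE 0.28, 95% interval -1.25 to -0.18) did not pass (edgeR adjusted p = 0.0848), but did without deficient 2, at -1.02 (adjusted p = 0.0158). H1f1 was not tested, with 11 reads over the deficient and 33 over the wild-type libraries.

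**Figure D2:**
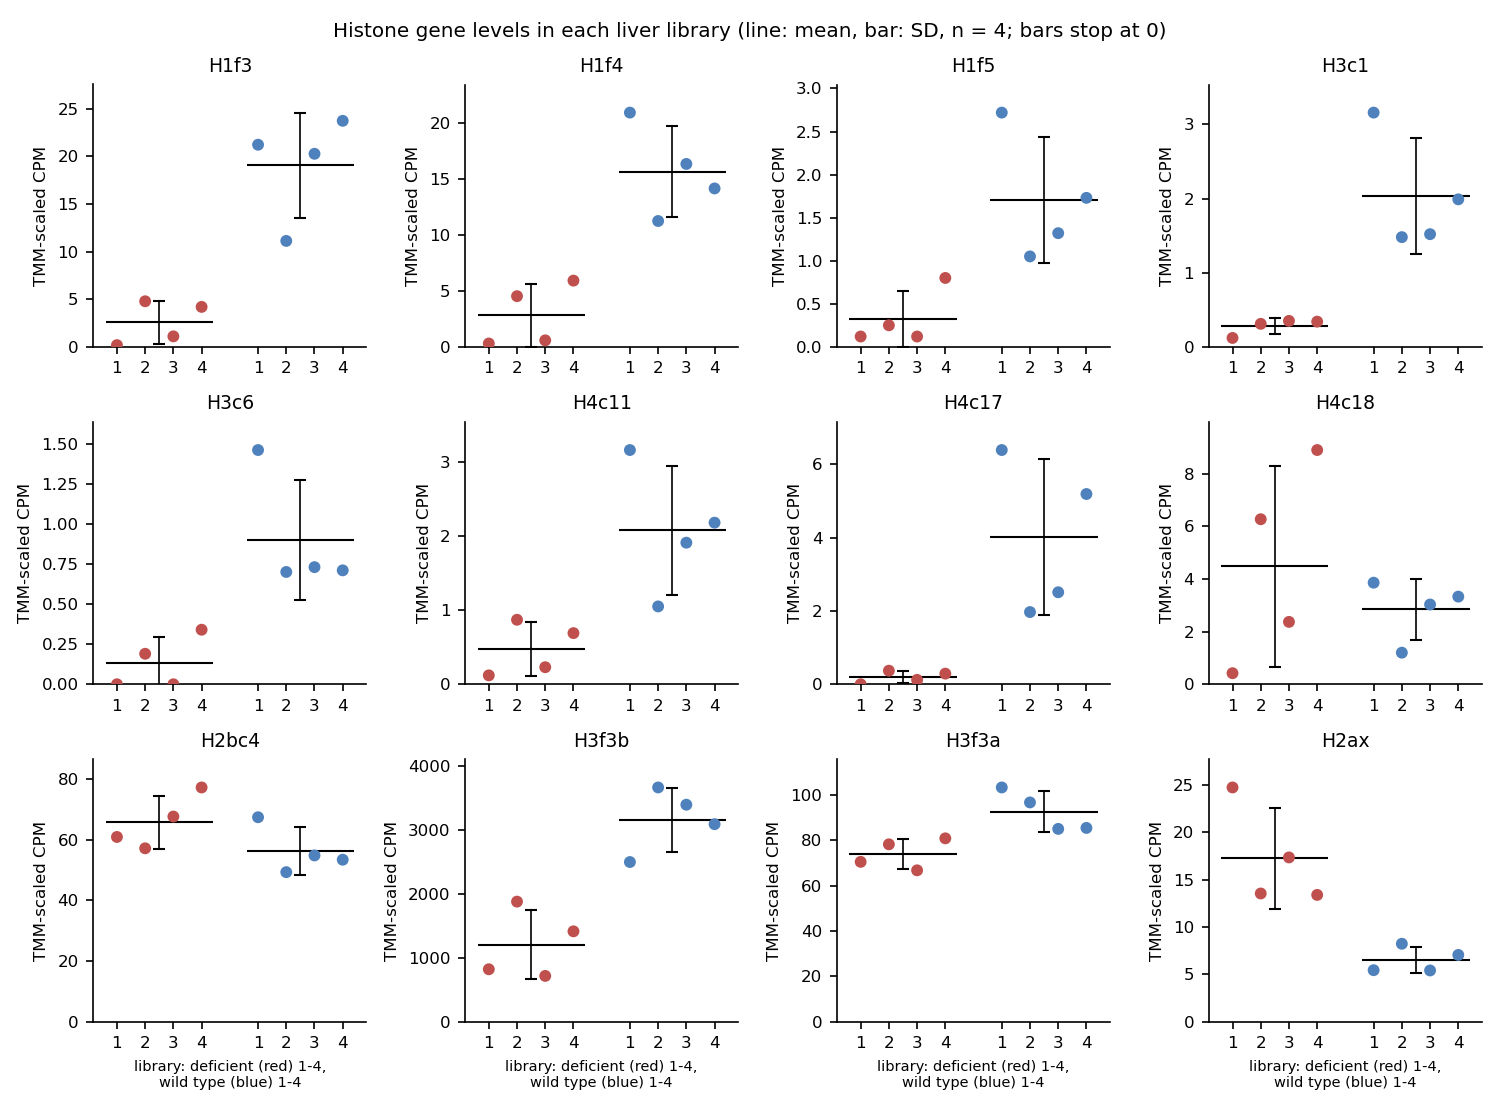
TMM-scaled CPM (y axis, from 0, scale set per gene) of 12 histone genes in each library; points are libraries, lines means and bars SD over 4 libraries, cut at 0. For H1f3, H1f4, H1f5, H3c1, H3c6, H4c11, H4c17, H3f3b and H3f3a every deficient library lies below every wild-type library, for H2ax every one lies above, and for H4c18 and H2bc4 the groups overlap.

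Of the clustered H3 genes, which encode the replication-coupled H3.1 and H3.2 proteins, 3 of 12 could be tested and 2 fell. H3c1 (ENSMUSG00000069265) had 2, 5, 6 and 6 reads in the deficient and 50, 21, 23 and 31 in the wild-type libraries. All deficient libraries were alike and low, including 2 and 4. Its level was 0.281 ± 0.108 against 2.04 ± 0.787 CPM (SD, n = 4), a log2 fold change of -2.82 (SE 0.46, edgeR adjusted p = 0.00481). H3c6 (ENSMUSG00000069273) had 0, 3, 0 and 6 reads in the deficient and 23, 10, 11 and 11 in the wild-type libraries, the highest in wild type 1. It fell by 2.68 (SE 0.77, edgeR adjusted p = 0.0311) but missed the threshold when any library other than deficient 4 or wild type 2 was left out, with adjusted p between 0.0502 and 0.076. H3c11 had 0, 17, 1 and 7 against 13, 7, 18 and 22 reads, overlapping groups with a log2 fold change of -1.37 (SE 0.80, edgeR adjusted p = 0.247), and was at -2.60 (adjusted p = 0.0508) without deficient 2. H3c1 shares 49.5% of its words with other members and H3c6 shares 73.4%. Adding H3c11 to its near-identical copy H3c10 gave -1.58 (adjusted p = 0.171).

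The H4 genes all encode the same core histone, so their copies are hard to tell apart in short reads. Of 12, 8 were tested, with a median log2 fold change of -1.46. H4c11 and H4c17 fell at the adjusted threshold, while 6 of the 8 were lower at an unadjusted p under 0.05. H4c11 (ENSMUSG00000067455) had 2, 14, 4 and 12 reads in the deficient and 50, 15, 29 and 34 in the wild-type libraries. Deficient 2 and wild type 2 nearly met. H4c11 fell by 2.11 (SE 0.56, edgeR adjusted p = 0.023), missing the threshold without deficient 3, wild type 1 or wild type 3 (adjusted p of 0.0668, 0.0524 and 0.0537). H4c4 had 3, 50, 32 and 61 against 123, 46, 74 and 136 reads and a log2 fold change of -1.51 (SE 0.57, edgeR adjusted p = 0.0791; DESeq2 adjusted p = 0.0329). H4c12 had 4, 16, 6 and 16 against 44, 10, 19 and 30 reads, at -1.41 (SE 0.55, edgeR adjusted p = 0.0865). Both overlapped between the groups, wild type 2 being the low wild-type library. H4c9 was at -0.79 (edgeR adjusted p = 0.267). H4c3, named here after its values were seen because its groups did not overlap, had 0, 44, 16 and 64 against 103, 68, 82 and 124 reads, at -1.74 (SE 0.68, edgeR adjusted p = 0.0875). H4c3 passed in limma-voom (-3.04, adjusted p = 0.0398), in limma on log2(FPKM + 1) (-1.56, adjusted p = 0.03) and without deficient 1 (-1.33, adjusted p = 0.0488), but not in DESeq2. H4c8, also named after its values were seen, was at -1.02 (edgeR adjusted p = 0.125) and passed without deficient 4 (-1.61, adjusted p = 0.0297).

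H4c17 and H4c18, near-identical genes, divided their reads differently in the 2 groups. H4c17 (ENSMUSG00000069306) had 0, 6, 2 and 5 reads in the deficient and 101, 28, 38 and 81 in the wild-type libraries, the largest fall of any tested member, with a log2 fold change of -4.32 (SE 0.65, edgeR adjusted p = 0.00419). H4c18 (ENSMUSG00000069305) had 7, 101, 41 and 155 reads in the deficient and 61, 17, 46 and 52 in the wild-type libraries, at 0.65 (SE 0.65, edgeR adjusted p = 0.508). H4c17 shares 89.8% of its 50-base words with H4c18. The sum of both genes was 7, 107, 43 and 160 reads in the deficient and 162, 45, 84 and 133 in the wild-type libraries. Those sums overlapped, and with near-identical copies added together the pair did not pass, at -0.55 (SE 0.63, edgeR adjusted p = 0.564). H4c17 took 0, 5.61, 4.65 and 3.13% of the pair's reads in the deficient libraries and 62.4, 62.2, 45.2 and 60.9% in the wild-type libraries. The exact 95% binomial intervals of the 3 deeper deficient libraries reached at most 15.8%, and those of the wild-type libraries began at 34.3% or more; deficient 1 had 7 reads of the pair, which allows up to 40.96%. These intervals cover counting error only. Whether a sequence difference between these copies or the way reads were assigned moves with the genotype was not tested. With copies added together, 6 clustered genes fell, the same 7 as before without H4c17.

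**Figure D3:**
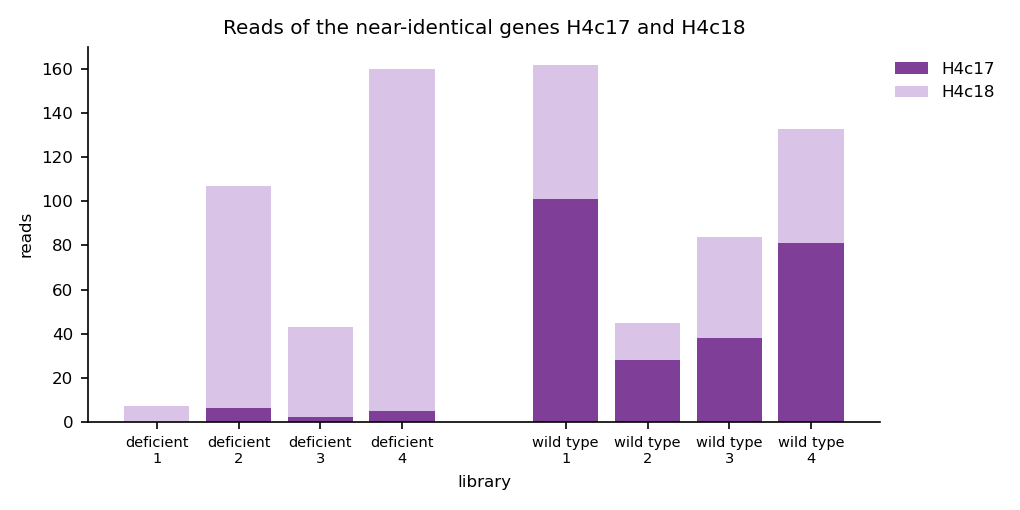
Reads of H4c17 (dark) and H4c18 (light) stacked for each library (y axis, reads, from 0). H4c17 is between 0 and 6 reads in the deficient libraries and between 28 and 101 in the wild-type libraries, while the stacked totals overlap.

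The H2A and H2B genes, which encode the 2 partners of the outer nucleosome dimer, showed no call. None of 17 H2A genes had enough reads to be tested, and their reads came to 81 in the deficient and 81 in the wild-type libraries in total. Of 17 H2B genes, 4 were tested and 0 were lower or higher with edgeR, DESeq2 or limma-voom, and 0 had an unadjusted p under 0.05. H2bc4 (ENSMUSG00000018102), the clustered gene with most reads, had 1009, 920, 1169 and 1344 reads in the deficient and 1065, 701, 831 and 833 in the wild-type libraries. The groups overlapped, and its log2 fold change was 0.23 (SE 0.16, edgeR adjusted p = 0.335, 95% interval -0.08 to 0.53). H2bc21 had 16, 4, 10 and 19 against 7, 8, 11 and 16 reads, at 0.07 (SE 0.51, edgeR adjusted p = 0.941, 95% interval -0.92 to 1.06), with a sign that differed between settings. H2bc8 and H2bc6 were both at -1.06 (edgeR adjusted p of 0.253 and 0.284). H2bc15, not tested with edgeR and named after its values were seen, had 0, 1, 4 and 0 against 5, 4, 5 and 13 reads and was called lower by limma on log2 FPKM. H2ac8, the H2A gene with the highest mean FPKM, had 6, 6, 3 and 6 against 7, 3, 3 and 10 reads.

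Among the 44 untested clustered genes, 29 had a read, with at most 54 reads over all libraries and 15 in any 1 of them. H3c15, named after its values were seen, was the clearest exception to the direction of the class. It had 6, 7, 2 and 10 reads in the deficient libraries and 0 in each wild-type library, at least 7.52-fold higher in deficient livers against a floor of 3 reads over the wild-type group. It passed in the fit without an expression filter (edgeR adjusted p = 0.0164), whereas DESeq2 gave no adjusted p. It shares 63.5% of its words with H3c14, which had no read. The germline H1 genes had no read, apart from 6 reads of H1f6 in deficient libraries 1 and 4.

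Of the 8 polyadenylated variants, 6 were tested, 1 fell (H3f3b) and 0 rose with edgeR, DESeq2 and limma-voom, beside 10.6% lower and 9.27% higher over all genes with edgeR. With 6 genes, these counts do not set the variants apart from all genes. At an unadjusted p under 0.05, 2 were lower and 0 higher, and the median log2 fold change was -0.11. H3f3b (ENSMUSG00000016559; chromosome 11, 115912738 to 115918788 on the minus strand as listed) encodes H3.3, the replacement H3 that is deposited outside replication. It had 13600, 30267, 12389 and 24627 reads in the deficient and 39508, 52168, 51520 and 48251 in the wild-type libraries. No deficient library reached the lowest wild-type library, and deficient 1 and 3 were again under 2 and 4. Deficient libraries averaged 1208 ± 543.5 CPM and wild-type libraries 3164 ± 501.5 CPM (SD, n = 4). The log2 fold change was -1.39 (SE 0.28, edgeR adjusted p = 0.0099), which is 38.2% of the wild-type level. H3f3b fell in every setting run. Beside its level, 422.5 ± 177.3 FPKM (reads scaled to gene length and library total; SD, n = 4) in deficient and 1006 ± 122.9 in wild-type libraries, all other members were low.

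H3f3a (ENSMUSG00000060743) encodes the same H3.3 protein from a second gene. It had 1167, 1258, 1153 and 1406 reads in the deficient and 1631, 1374, 1288 and 1332 in the wild-type libraries. After scaling, the groups did not overlap, at 74.0 ± 6.57 and 92.5 ± 8.93 CPM (SD, n = 4). The log2 fold change of -0.32 (SE 0.14, 95% interval -0.60 to -0.04) did not pass (edgeR adjusted p = 0.129). Per length, H3f3b was 13.7, 28.3, 12.7 and 20.6 times H3f3a in the deficient and 28.5, 44.7, 47.1 and 42.7 times in the wild-type libraries. Deficient 2 and wild type 1 nearly met on this ratio, and the other libraries were well apart.

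The remaining variants did not pass. H2az1, which encodes the H2A.Z found at promoters, had 644, 514, 784 and 680 against 1272, 641, 657 and 591 reads, at -0.41 (SE 0.23, edgeR adjusted p = 0.224), with wild type 1 standing apart. H2az2, its close paralog, had 179, 154, 187 and 189 against 158, 118, 115 and 131 reads, at 0.29 (SE 0.17, edgeR adjusted p = 0.234). The signs of both H2A.Z genes thus differed, with neither past the threshold. H1f0, the linker histone of resting and differentiated cells, had 1472, 1720, 1844 and 1436 against 876, 1394, 891 and 1368 reads, at 0.36 (SE 0.20, edgeR adjusted p = 0.233, 95% interval -0.04 to 0.76). Macroh2a1, an H2A with a large macro domain, had 716, 728, 710 and 700 against 713, 591, 508 and 596 reads, at 0.10 (SE 0.14, edgeR adjusted p = 0.65). The intervals of these 4 genes hold 0 and extend to changes of up to 0.86 on the log2 scale. H1f10 and Macroh2a2 had too few reads to test, 5 and 42 in all.

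H2ax (ENSMUSG00000049932; chromosome 9, 44245991 to 44247374 on the plus strand as listed) encodes H2A.X, which is phosphorylated around DNA breaks, and was the tested member that rose. It had 410, 218, 300 and 233 reads in the deficient and 86, 117, 82 and 110 in the wild-type libraries. Every deficient library was above every wild-type library, deficient 1 the highest. Its level was 17.3 ± 5.32 against 6.53 ± 1.37 CPM (SD, n = 4), a log2 fold change of 1.40, or 2.64-fold (SE 0.24, edgeR adjusted p = 0.00546), and it passed in every setting run. Its model holds a stem-loop followed by 822 bases, and a count over the gene does not separate ends at the stem-loop from polyadenylated ends.

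Summed per library, the clustered and variant classes differed in what carried them. The 60 clustered genes other than H1f2, H2bc4 and H2bc21 summed to 5.97, 37.0, 13.7 and 43.7 CPM in the deficient and 99.6, 50.1, 73.5 and 91.8 CPM in the wild-type libraries. The groups did not overlap, deficient 4 coming nearest to wild type 2. The means were 25.1 ± 18.1 and 78.7 ± 22.04 CPM (SD, n = 4), 3.14-fold higher in wild type. By family, without those 3 genes, the wild-type sum was 6.29-fold the deficient sum for H1 and 3.47-fold for H3, with no overlap. It was 2.17-fold for H4, 2.05-fold for H2B and 1.11-fold for H2A, where libraries of both groups overlapped. The 7 variants other than H3f3b summed to 252.7, 272.0, 270.9 and 253.6 CPM in the deficient and 294.8, 289.8, 228.2 and 258.2 CPM in the wild-type libraries. These overlapped throughout, with means of 262.3 ± 10.6 and 267.7 ± 31.0 CPM (SD, n = 4). H3f3b was left out after its fall was seen. With it, the 8 variants summed to 1073, 2152, 987.5 and 1669 CPM in the deficient libraries. In the wild-type libraries they summed to 2795, 3958, 3626 and 3351 CPM. These groups did not overlap, and the deficient mean was 42.8% of the wild-type mean. For all 63 clustered genes the means were 131.9 ± 31.9 and 201.8 ± 25.7 CPM (SD, n = 4), or 65.3% of wild type. Since the members were chosen with earlier results known, sums over them carry no test.

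**Figure D4:**
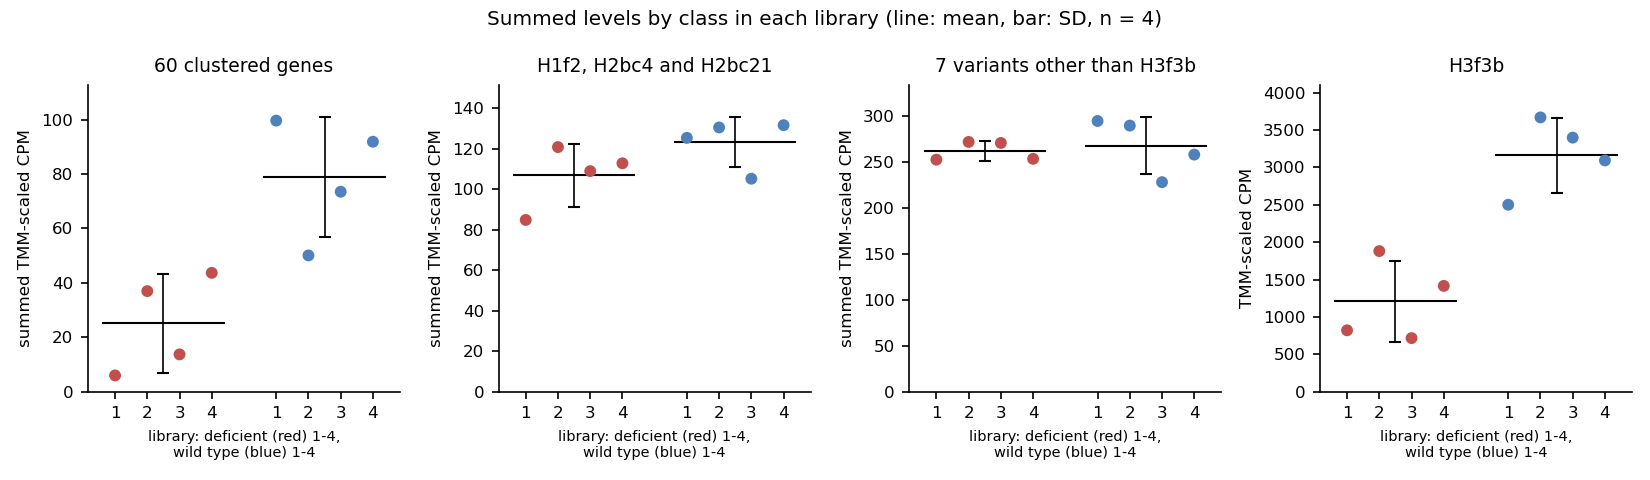
Summed TMM-scaled CPM (y axes, from 0) in each library for 60 clustered genes, for H1f2, H2bc4 and H2bc21 together, for 7 variants and for H3f3b. Lines are means and bars SD over 4 libraries. The 60 clustered genes and H3f3b are lower in all deficient libraries, while the other 2 sums overlap between the groups.

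The ratio of all clustered to all variant reads was 8.46, 7.33, 12.4 and 9.38% in the deficient and 8.05, 4.56, 4.93 and 6.67% in the wild-type libraries. The groups overlapped, wild type 1 lying above deficient 2, and the log2 ratio of the groups was 0.65 (pooled SD between libraries 0.35). That sign rested on a few genes. H1f2, H2bc4 and H2bc21 supplied 72.1 to 93.4% of clustered reads in deficient and 55.7 to 72.3% in wild-type libraries. H3f3b supplied 72.6 to 87.4% of variant reads in deficient and 89.5 to 93.7% in wild-type libraries. Without those 3 clustered genes the log2 ratio was -0.71, and without H3f3b it was -0.62. Without all 4 it was -1.97, with 2.36, 13.6, 5.06 and 17.2% in the deficient and 33.8, 17.3, 32.2 and 35.6% in the wild-type libraries. On that last ratio deficient 4 and wild type 2 nearly met, and all other deficient libraries were lower than all wild-type libraries.

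The members that fell lie in both chromosome 13 groups of histone genes. As listed in the deposited table, whose genome build is not given in the sources used here, 23 clustered genes lie at 21899933 to 22227846 and 30 at 23715220 to 24118834 on chromosome 13, and 10 at 96127181 to 96177448 on chromosome 3. In the first group 3 of 7 tested genes fell (H1f5, H4c11 and H4c17), and in the second 4 of 11 (H1f3, H1f4, H3c1 and H3c6). On chromosome 3 only H2bc21 was tested. The other 9 chromosome 3 genes summed to 7, 22, 2 and 20 reads in the deficient and 5, 2, 1 and 4 in the wild-type libraries, 51 against 12 in all. Deficient 3 overlapped the wild-type libraries, H3c15 gave 25 of the 51, and the difference between the chromosomes was not tested. Between the chromosome 13 histone genes lie 9 other genes. The 3 in the first group had too few reads to test. In the second group 5 were tested and 3 fell, against 10.6% of all genes. These, named for being so few, were Hfe, a regulator of iron uptake, at -0.62 (SE 0.18, edgeR adjusted p = 0.0294), and the solute carriers Slc17a4 at -1.21 (adjusted p = 0.017) and Slc17a2 at -0.53 (adjusted p = 0.0302). Slc17a1 at -0.53 and Slc17a3 at -0.39 did not pass (adjusted p of 0.178 and 0.223).

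**Figure D5:**
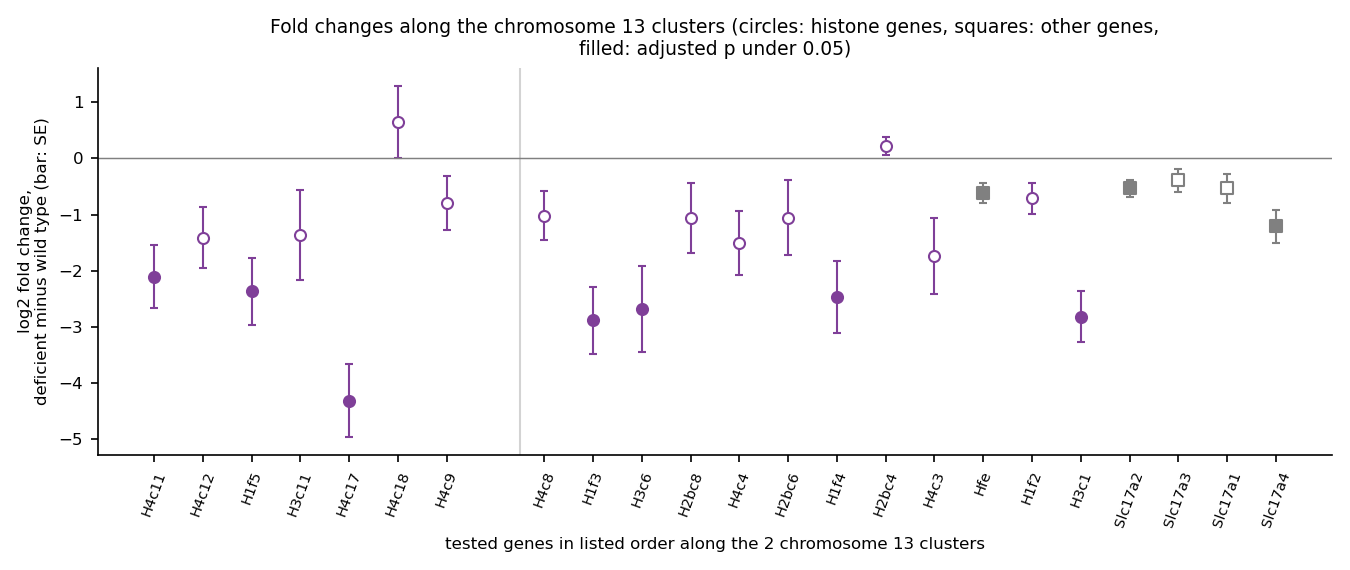
Log2 fold change (deficient minus wild type, y axis) of tested genes in listed order along both chromosome 13 clusters, separated by the vertical line; circles are histone genes, squares other genes, bars 1 SE and filled symbols passed the edgeR threshold. H2bc4 and H4c18 are the 2 genes above 0, and the 5 other genes lie between -1.21 and -0.39.

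Libraries within a group also differed in a way shared by most tested clustered genes, though not by them alone. Of the 16 tested clustered genes other than H1f2, H2bc4 and H2bc21, deficient 1 was the lowest deficient library in 14 and deficient 3 in 2. Both were below deficient 2 and 4 in 13 of the 16, and wild type 2 was the lowest wild-type library in 13. The variants other than H3f3b showed no such order in their sum. How many of all genes have this order was not counted. Outside the histone genes, Cyp2e1 had it, at 1416, 3202, 1719 and 3201 CPM in deficient 1 to 4. Daxx had it too, at 28.7, 61.6, 32.6 and 61.4 CPM. Alb did not, at 55473, 79131, 69573 and 67374 CPM. What sets deficient 1 and 3 apart was not tested, as the labels give no batch.

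Gene lists for the making and handling of histones are read against the 10.6% lower and 9.27% higher of all genes tested. Of 29 tested genes for 3' end processing and transcription of histone genes, 1 rose and 0 fell, with a median log2 fold change of 0.16. That gene was Lsm10, of the U7 ribonucleoprotein that cuts histone pre-mRNA, with 29, 53, 91 and 58 against 27, 14, 27 and 23 reads, a rise of 1.19 (SE 0.37, edgeR adjusted p = 0.0408). It did not pass in 9 of the other settings, among them every one that left out a library except deficient 1. At an unadjusted p under 0.05, 5 of the 29 were higher and 2 lower, and DESeq2 and limma-voom each called 1 lower. Of 27 histone chaperones 3 rose and 1 fell, a share of rises near that of all genes, with a median log2 fold change of 0.16. At an unadjusted p under 0.05, 6 of the 27 were higher and 4 lower. Ubn1, of the HIRA complex that deposits H3.3, rose by 0.89 (SE 0.17, edgeR adjusted p = 0.0075), Nap1l1, an H2A-H2B chaperone, by 0.64 (adjusted p = 0.0203), and Hjurp, the chaperone of centromeric H3, by 0.55 (adjusted p = 0.0219). Daxx, an H3.3 chaperone named as the single one that fell, had 476, 992, 564 and 1069 against 1719, 1013, 1447 and 1342 reads, at -0.97 (SE 0.26, edgeR adjusted p = 0.0236), with no overlap after scaling. Nap1l1 missed the threshold without wild type 3 (adjusted p = 0.0682), and Hjurp without deficient 4 or wild type 3 (adjusted p of 0.0549 and 0.0745).

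Of 31 tested S phase genes 1 rose and 1 fell with edgeR, beside the same 9.27% and 10.6% of all genes, with a median log2 fold change of 0.26. At an unadjusted p under 0.05, 7 of the 31 were higher and 2 lower, and DESeq2 called 3 higher and 1 lower. Cdk2, a kinase of S phase entry, had 121, 123, 132 and 87 against 61, 48, 60 and 59 reads and rose by 0.88 (SE 0.21, edgeR adjusted p = 0.0175). E2f8, a repressor of E2F targets, had 124, 210, 235 and 190 against 278, 335, 715 and 318 reads and fell by 1.27 (SE 0.30, edgeR adjusted p = 0.0166). Neither gene's groups overlapped. Of 12 tested mitosis genes 0 rose and 0 fell with edgeR, DESeq2 or limma-voom, 0 had an unadjusted p under 0.05, and their median was 0.47. Summed S phase levels were 174.1 to 185.9 CPM in deficient and 165.0 to 197.8 CPM in wild-type libraries, overlapping throughout. None of 36 listed RNAs without a poly(A) tail matched a gene of the table, so they were not analysed here.

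Markers of several liver cell types moved between the same groups. Beside 10.6% lower and 9.27% higher over all genes, of 10 Kupffer cell markers 4 fell with edgeR and DESeq2 and 1 with limma-voom, among them Cd5l at -1.34 (edgeR adjusted p = 0.0255), Csf1r at -1.12 (0.0365) and Adgre1 at -1.24 (0.0394), with a summed level of 45.1 to 64.2 CPM in deficient and 60.9 to 196.7 CPM in wild-type libraries. All 10 Kupffer cell markers had a negative log2 fold change, and 7 were lower at an unadjusted edgeR p under 0.05. Without wild type 1, Cd5l was at -0.74 (adjusted p = 0.0275) and Csf1r at -0.70 (adjusted p = 0.0871). Of 9 tested neutrophil markers 2 rose, Mmp8 by 2.12 (edgeR adjusted p = 0.0209) and Cxcr2 by 1.53 (0.0312), with sums of 95.2 to 183.3 against 27.8 to 103.0 CPM. All 9 had a positive log2 fold change, and 4 were higher at an unadjusted p under 0.05. DESeq2 called 4 of them higher and limma-voom 3. Of 5 tested cholangiocyte markers Sox9 fell by 2.06 (edgeR adjusted p = 0.0248), with sums of 43.4 to 152.3 against 194.5 to 233.6 CPM. The sums of the first and second list overlapped between the groups, and those of the third did not. Most of the third sum in wild type was Sox9. Sox9 had 9.65, 96.7, 21.1 and 18.7 CPM in the deficient and 146.0, 144.5, 164.3 and 152.5 CPM in the wild-type libraries. The other 4 tested cholangiocyte markers did not pass, and Spp1 was at 0.26 (edgeR adjusted p = 0.633). Of 10 hepatocyte markers Cps1 fell by 0.94 (edgeR adjusted p = 0.022), while 9 of the 10 had a negative log2 fold change, 5 were lower at an unadjusted p under 0.05 and DESeq2 called 4 lower. Of 9 stellate markers Reln fell by 0.99 (0.00436) and Dcn by 0.66 (0.0321). Clec4g fell by 1.39 (edgeR adjusted p = 0.0216) among 8 endothelial markers, and Gzma by 0.84 (0.0428) among 7 T and NK cell markers. Of 8 erythroid markers 0 passed, 4 being lower at an unadjusted p under 0.05 and 1 lower in DESeq2, and of 2 B cell markers 0 passed, none at an unadjusted p under 0.05. Summed levels of these last 6 lists overlapped between the groups, at 96690 to 127700 against 126400 to 148200 CPM for hepatocyte, 105.2 to 217.7 against 161.4 to 270.9 for stellate, 56.6 to 98.1 against 48.3 to 125.9 for endothelial, 34.5 to 51.3 against 35.5 to 67.3 for T and NK cell, 233.6 to 384.3 against 187.3 to 1452 for erythroid and 6.58 to 9.54 against 4.62 to 8.93 CPM for B cell markers. Of the markers named, Reln alone passed with each library left out in turn: Mmp8, for one, was at 1.37 without deficient 4 (adjusted p = 0.063), and Sox9 at -1.86 without deficient 3 (adjusted p = 0.0744) and -3.20 without deficient 2 (adjusted p = 0.000429). No matched marker was at 0 in all libraries. The part of these cell types in the histone values was not tested.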

How the data were processed

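Mouse liver RNA (8 libraries, 4 P2X4R-deficient and 4 wild type, ConA, 8 h) was sequenced after poly-T selection, per the labels' protocols. Per the file headers, the deposited table holds raw read counts per gene and FPKM computed by the authors, with gene length and coordinates. FPKM recomputed from counts and lengths lay within 6.96e-05% of those deposited. The submitters' processing notes name cutadapt and HISAT2 2.0.5. The counting program, strand setting, annotation and genome build were not given in the sources used here.

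Counts of 21899 genes were scaled by TMM (factors 0.9175 to 1.0771), filtered by edgeR's filterByExpr by group, which left 11380 genes, and tested with edgeR 4.0.16 (R 4.3.3) without covariates. Benjamini-Hochberg adjustment ran over all of them. SE is the size of the log2 fold change over the root of its F statistic, and 95% intervals are 1.96 SE to each side. With 4 libraries a group, this normal multiplier makes them narrower than the quasi-likelihood test implies, so they are approximate. On simulated counts for these 11380 genes, 48% of 2-fold and 94% of 4-fold changes were recovered, 100% with the right sign, with 6 false calls. The changed genes were drawn at random from all genes tested, so these rates need not hold for clustered genes with few reads. Floors and counting intervals cover counting error only, since reads carry no molecular identifiers.

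Members, classes and gene lists were chosen with earlier results of these data known. Genes were named by rule: every variant and H2ax, H1f2, H2bc4, H2bc21, in each clustered family the 4 tested genes with the smallest p and the 2 with the highest mean FPKM, and in each list up to 3 that passed with the smallest p. Where 2 genes shared a list member's symbol, which was so for 20 symbols in the table, the one with most reads was used. Alternatives were library size alone, DESeq2's size factors, DESeq2 1.42.0, limma-voom (limma 3.58.1), no filter, 1 CPM in 4 libraries, robust empirical Bayes, the replicate block, removal of a length trend, limma on log2(FPKM + 1) and log2(FPKM + 0.1) for genes at FPKM 0.5 or more in 4 libraries, and each library left out. Adding near-identical copies together (over 75% of 50-base words shared) and leaving H3f3b out of the ratio were chosen after seeing the data. Copies were sought among the members alone, in protein-coding GENCODE M21 transcripts, which matched members by identifier.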

Additional observations from a re-analysis of the deposited data

Results flagged for a closer look

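Dixon's test at the 95% level was run on 90 groups of 4 libraries for the named genes, and 7 had a library set apart, where chance sets apart about 1 in 20 groups. Among histone genes, H2az1 was at 80.5 CPM in wild type 1 against 37.9 to 45.1 CPM in the other wild-type libraries. H2az2 was at 9.57 CPM in deficient 2 against 10.8 to 10.9 CPM, a narrow spread. H3c6 was at 1.46 CPM in wild type 1 against 0.70 to 0.73 CPM. Cdk2 was at 5.0 CPM in deficient 4 against 7.30 to 7.64 CPM. Cd5l was at 35.9 CPM in wild type 1 against 9.74 to 13.3 CPM. Mmp8 was at 8.16 CPM in deficient 4 against 1.74 to 2.73 CPM. Sox9 was at 96.7 CPM in deficient 2 against 9.65 to 21.1 CPM.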

How the results depend on the processing

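Of 484 values of the 26 tested histone genes under the other settings, 459 kept their direction and side of the threshold, 13 no longer passed, 7 newly passed and 5 changed sign. Those 5 were H2bc21, never past the threshold, at -0.06 in limma-voom and -0.10, -0.22, -0.11 and -0.01 without deficient 1, deficient 4, wild type 1 and wild type 2, within a range of -0.22 to 0.34 over the fits that each left out 1 library. The 7 clustered genes that fell became 4 with 1 CPM in 4 libraries, and 4 to 8 with a library left out. Clustered genes that rose were 0, and 1 without an expression filter (0 with each library left out). Variants stayed at 1 lower and 0 higher, also with each library left out. Over all genes, 1209 fell and 1055 rose (528 to 1309 and 454 to 1079 with a library left out). Library size alone gave 1731 higher and 843 lower (67.25% higher, against 46.6%) and moved the median of all genes by 0.145, and limma on FPKM gave 1602 and 1594 higher (pseudocounts 1 and 0.1). The clustered to variant ratio of 0.65 (0.50 to 0.79 with a library left out) was 0.02 without H2bc4 and -0.71 without H1f2, H2bc4 and H2bc21. It was -0.62 without H3f3b and -1.97 without all 4, so its sign depended on which genes were counted. With the replicate block 6 clustered genes fell, H1f2 (-0.78, edgeR adjusted p = 0.0425) passing and H3c6 (0.0583) and H4c11 (0.0509) not, with 1007 genes lower and 761 higher in all. Same-numbered libraries correlated at 0.132, -0.114, 0.074 and -0.105 and 0 of 4 correlated best with their own number. These values gave no sign that the numbers pair the samples. So few weak correlations cannot exclude a pairing, on which the labels are silent. At these read counts 44 clustered genes could not be tested; why they had so few reads was not tested.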
